A study of Homo sapiens with 6 samples.

Results

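The genes described here encode the proteins of the mitochondrial ribosome, the MRPL and MRPS genes, and they were followed in 12Z, a cell line established from human endometriotic epithelium. The members were the rows whose symbol is MRPL or MRPS followed by a number and at most 1 letter. This rule found 78 members among the 16279 genes in the tables, of which 50 belong to the large subunit (49 MRPL genes and MRPS18A) and 28 were counted with the small subunit. The Control group had 3 libraries from cells that received no treatment, and the rhChem157S group had 3 libraries from cells given recombinant human chemerin that ends at Ser157 (10 ng/mL, 48 h), an adipokine made active by cleavage of its C-terminus. The replicates are called biological replicates in the labels, all came from 1 cell line, and no vehicle for the Control cells is named in the sources used here.

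The mitochondrial ribosome translates the few messages of the mitochondrial genome, which encode core subunits of the respiratory chain and of ATP synthase. All of its proteins are encoded in the nucleus, made in the cytosol and imported, while its RNAs come from mitochondrial DNA. Some of the proteins have counterparts in the bacterial ribosome, and others are found in mitochondrial ribosomes alone. The factors NRF1, GABPA (an ETS factor) and YY1 are known to bind the promoters of many such genes. MRPS36 carries an MRPS symbol but is now described as a component of the 2-oxoglutarate dehydrogenase complex, and MRPS30 lies in the large subunit of the human structure. Both were kept with the small subunit by their symbols, and with MRPS30 moved to the large subunit the median log2 fold change (rhChem157S over Control) stayed at 0.17 there and went from 0.14 to 0.12 in the small subunit.

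Each library held between 35430881 and 38341643 counted reads. Of the epithelial markers, KRT8 was at 748 to 966 FPKM (fragments per kilobase of gene, scaled to the library's total) and KRT18 at 555 to 640 FPKM. By contrast, EPCAM stayed at or below 0.807 FPKM and CDH1 (E-cadherin) at or below 0.381 FPKM in every library, so these defining epithelial messages were near 0. Summed stromal markers ranged from 2098 to 2215 FPKM in Control and from 2940 to 4106 FPKM in rhChem157S, with VIM (vimentin) at 827 to 991 and 1507 to 3247 FPKM. VIM alone carried this gap: without it the stromal sum was 1334, 1272 and 1138 FPKM in Control and 1434, 1184 and 860 FPKM in rhChem157S, which overlapped. The summed epithelial markers, nearly all keratins, overlapped (1596 to 1866 against 1760 to 1976 FPKM). KRT8, KRT19, KRT18 and KRT7 each overlapped in FPKM, with log2 fold changes of 0.29, 0.27, 0.16 and 0.083. Their edgeR adjusted p were 0.201, 0.209, 0.416 and 0.873. MUC1 (10.2 to 14.4 against 6.79 to 9.85 FPKM, edgeR adjusted p = 0.135, DESeq2 adjusted p = 0.0404) was lower with rhChem157S without overlap. So were EPCAM (0.387 to 0.807 against 0.125 to 0.277 FPKM, edgeR adjusted p = 0.165) and CDH1 (0.238 to 0.381 against 0.0859 to 0.201 FPKM, edgeR adjusted p = 0.188). Of all tested genes, 25.1% were lower without overlap in FPKM. Overlap was also seen in the immune sum (70.1 to 134.5 against 80.3 to 120.7 FPKM, nearly all CD68), and the endothelial sum stayed below 0.7 FPKM. The part of the marker shift in the results below was not tested. In a bulk library, fewer cells with a message and less of it per cell cannot be told apart.

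The promoters are shown first because the members shared sequence features there that the rule did not use. RefSeq promoters (GRCh38.p14, 250 bases before to 50 after the start) were found for 70 of the 78 members and searched on both strands for 3 motifs, CCGGAAG (ETS factors), AAGATGG (YY1) and the NRF1 motif, which is GCGC and TGCGC around 1 free base. The ETS letters stood in 29 members (41.4%), against 16.5% of the 13052 genes in the tables with a promoter and 10.7% of all 27305 promoters. For YY1 the members were 23 (32.9%), against 6.67% and 6.06%. For NRF1 they were 8 (11.4%), against 10% and 6.28%. Between them, 47 of the 70 promoters (67.1%) held at least 1 of the motifs, while 28.8% of promoters of genes in the tables did. The median GC content was 60.3% in the members and 64.3% in the genes of the tables.

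The 150 bases before the start are printed below for 4 members, with matches to the ETS letters on either strand in capitals. MRPS34 was the most abundant member and held 3 matches, the largest number found in a member. MRPS22 also had 3 over its whole promoter window. MRPL43 and MRPL33 held 1 match each near the start and differed in the sign of their fold change. MRPL24 had the smallest p of all members and no match to any of the 3 motifs in its window. The stretches are chr16:1773135-1773284 (minus strand) for MRPS34, chr10:100987498-100987647 (minus) for MRPL43, chr2:27771569-27771718 (plus) for MRPL33 and chr1:156741089-156741238 (minus) for MRPL24.
MRPS34: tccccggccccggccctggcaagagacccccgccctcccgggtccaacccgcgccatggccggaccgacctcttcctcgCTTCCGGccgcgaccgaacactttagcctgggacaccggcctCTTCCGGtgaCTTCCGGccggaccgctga
MRPL43: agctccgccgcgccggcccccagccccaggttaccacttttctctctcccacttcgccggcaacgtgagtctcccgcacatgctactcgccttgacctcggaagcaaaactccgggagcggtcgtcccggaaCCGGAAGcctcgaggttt
MRPL33: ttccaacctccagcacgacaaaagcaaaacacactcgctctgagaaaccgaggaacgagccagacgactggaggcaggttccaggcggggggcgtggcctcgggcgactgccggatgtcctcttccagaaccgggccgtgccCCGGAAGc
MRPL24: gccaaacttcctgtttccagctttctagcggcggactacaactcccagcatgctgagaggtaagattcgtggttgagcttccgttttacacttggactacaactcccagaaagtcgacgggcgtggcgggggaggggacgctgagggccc
The 3 matches of MRPS34 began 71, 29 and 19 bases before the start, that of MRPL43 18 bases and that of MRPL33 8 bases before it. Over the members, 27 of 39 ETS matches lay in the 100 bases before the start (median position -22). In contrast, 16 of 24 YY1 matches began at or after the start (median position 9). A match is a description of letters and not a measured binding site.

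The members made up a small and even part of each library. They took 0.317%, 0.311% and 0.324% of the counts in Control replicates 1 to 3, and 0.322%, 0.319% and 0.346% in rhChem157S replicates 1 to 3. The groups overlapped in this share, and only rhChem157S replicate 3 lay above all Control libraries. The ratio of the mean shares (rhChem157S over Control) was 1.04, and 1.01 without that library. Large subunit members together held 2.17 to 2.21 times the summed FPKM of small subunit members in every library, in both groups.

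Expression levels differed far more between members than between groups. Over the 6 libraries the mean FPKM of the 77 members tested ranged from 1.78 to 90.2. The median over all 78 members, tested or not, was 23.8, against 7.57 over all tested genes. By subunit, again over all 78 members, the median was 25.6 FPKM in the large and 20.9 FPKM in the small subunit. MRPS34, which stabilises the small subunit, was the highest member at 90.2 FPKM, followed by MRPL37 at 81.3 FPKM and MRPL51 at 75.4 FPKM, both mitochondria-specific proteins of the large subunit. The lowest tested members were MRPL23 (1.78 FPKM), a protein near the exit of the peptide tunnel, and MRPS33 (2.28 FPKM). These levels rest on the gene length behind the FPKM. MRPL42 had 1666 to 1842 counts per library yet only 2.86 to 3.28 FPKM, since its length was taken as 15560 bases, against a median of 1513 bases over the members.

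MRPS24, the counterpart of a conserved bacterial protein of the small subunit, had 2, 4 and 1 counts in Control and 8, 2 and 6 counts in rhChem157S, and it was the only member removed by the filter on low counts. At 0.0416 to 0.313 FPKM it lay far below all other members. In GENCODE release 29 (GRCh38), MRPS24 is at chr7:43866558-43869893 on the minus strand, and 606 of its 2613 exon bases are shared on that strand with the read-through gene URGCP-MRPS24. The part of this overlap in the low count was not tested. Across the members, 16 shared exon bases with another gene on the same strand, 29 on the opposite strand, and 34 have a pseudogene named after them. The strand setting and the annotation used in the counting are not given in the sources used here, and these overlaps are those of GENCODE release 29. Reads of members and of neighbours on the opposite strand may therefore be mixed. The strand setting does not bear on reads shared on the same strand or with pseudogene copies. How those were counted was not tested. The gene models counted may also differ from those of GENCODE release 29, so an overlap given here need not be present in the counting.

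The main comparison asked whether rhChem157S changed these messages in 12Z cells. With edgeR's quasi-likelihood test on the counts, scaled with TMM factors and adjusted over 13311 genes, 0 of the 77 tested members passed an adjusted p of 0.05, where 0.0301% of all tested genes did. Their adjusted p ranged from 0.0752 (MRPL24) to 0.985 (MRPL42). Without adjustment, 24 members had a p under 0.05 (31.2%, against 22.8% of all tested genes), of which 22 were higher with rhChem157S (28.6%, against 11.4%) and 2 were lower (2.60%, against 11.4%). DESeq2 on the same counts called 2 of the 78 members, MRPL24 (adjusted p = 0.000388) and MRPL37 (adjusted p = 0.0402), both higher. These are 2.56% of the members, below the 9.05% of all genes that DESeq2 called. With DESeq2 and 1 library left out, 1, 1 and 1 members were called without Control replicates 1 to 3, where 4.72%, 2.03% and 3.81% of all genes were, and 11, 2 and 3 members without rhChem157S replicates 1 to 3, where 18.3%, 4.27% and 12.1% were. edgeR called 0 members with library totals alone, no filter or the replicate number as a block, where 0.0376%, 0.104% and 0.00751% of all genes were called, and limma on log2(FPKM + 0.1) called 0 where 0.173% were.

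The differences were small and mostly of 1 sign. The log2 fold change (rhChem157S over Control) was above 0 in 70 of 77 members (90.9%, against 51.7% of all tested genes). Its median was 0.16, with quartiles at 0.065 and 0.33, while the median of all tested genes was 0.012. The range ran from -0.37 (MRPL33) to 0.74 (MRPS28), so no member reached 1 in either direction, 4 were above 0.5 and 24 lay within 0.1 of 0. The standard errors had a median of 0.12 (0.077 to 0.30), which is as large as many of the differences. For a single gene compared over 3 libraries against 3, the smallest p that an exact permutation test (two-sided) allows is 0.10.

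**Figure D1:**
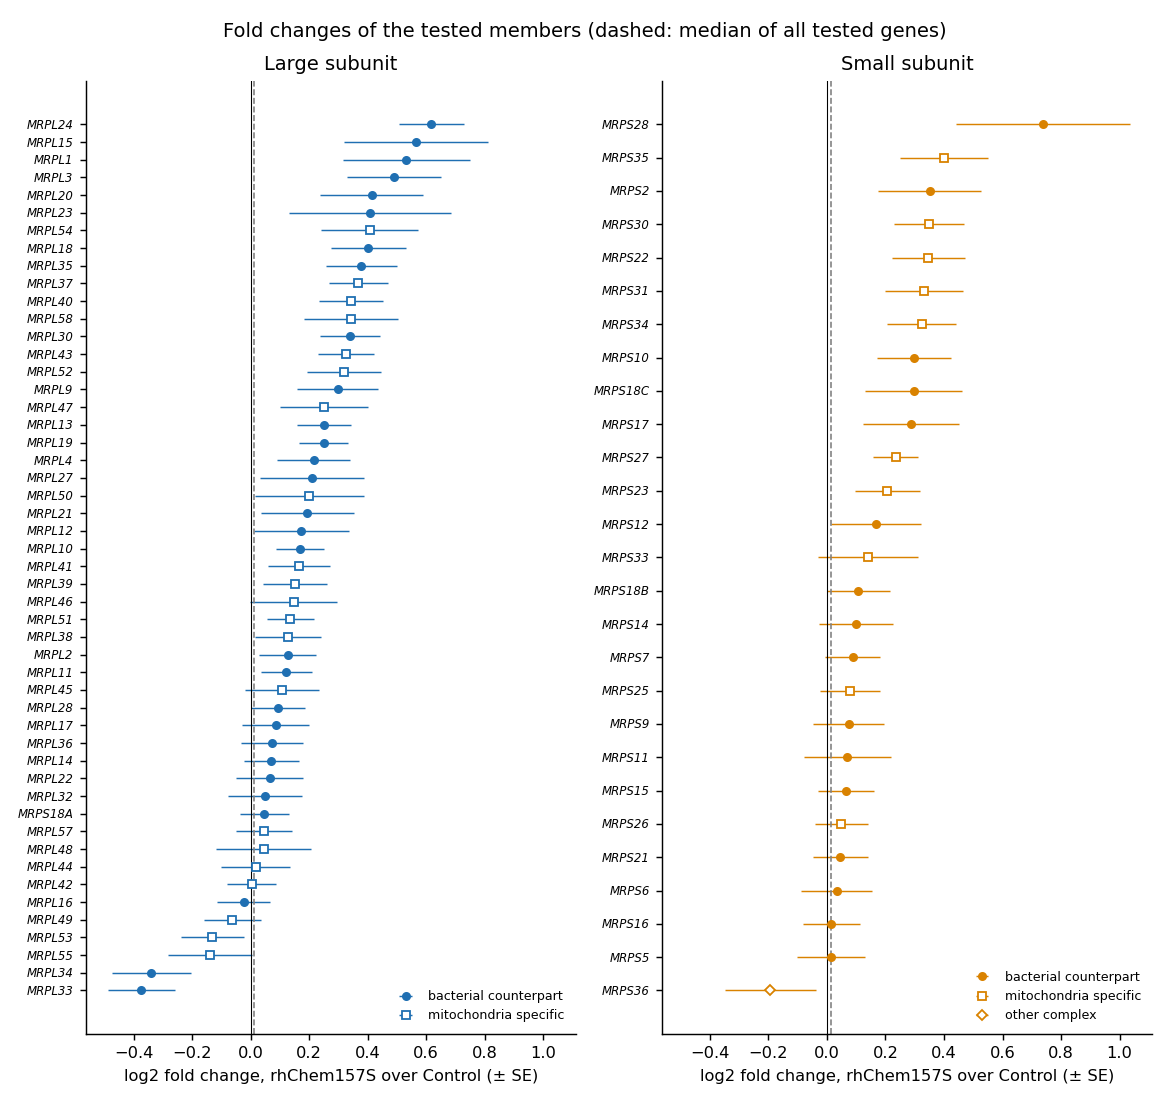
Log2 fold change (rhChem157S over Control, x axis) with its standard error for each of the 77 tested members, the large subunit on the left and the small subunit (by symbol) on the right, with filled points for proteins that have a bacterial counterpart and open ones for the others. Most points lie right of 0 by less than 0.4, and MRPL33 and MRPL34 lie farthest left.

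The sign depended on the scaling. The TMM factors were 1.04 to 1.05 in the Control libraries and 1.00, 0.97 and 0.90 in rhChem157S replicates 1 to 3. Scaled by the library total alone, the median of all tested genes moved from 0.012 to -0.12, a shift of 0.13, and 27 members changed sign. On that scale 43 of 77 members (55.8%, against 33.4% of all tested genes) were above 0, with a median of 0.030, and 8 had a p under 0.05 before adjustment, against 22.7% of all tested genes. Relative to the median of all tested genes, the members' median was 0.15 higher under either scaling. FPKM use the library total, so group means in FPKM can be level where the fold change on TMM-scaled counts is above 0.

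The libraries of the treated group also differed among themselves. On TMM-scaled counts the members' median difference from the Control mean (log2) was 0.028, -0.045 and 0.030 in Control replicates 1 to 3. It was 0.081 and 0.099 in rhChem157S replicates 1 and 2 and 0.31 in replicate 3. Of the 77 tested members, 56 were highest of all 6 libraries in rhChem157S replicate 3, as were 34.1% of all tested genes. This library had the lowest TMM factor. Among the stromal markers it had the highest levels of VIM (3247 FPKM) and PDGFRA (3.10 FPKM). It had the lowest levels of COL1A1 (728 FPKM), LUM (64.98 FPKM) and PDGFRB (5.52 FPKM). DCN (11.3 FPKM there) and THY1 (46.7 FPKM there) were lowest in a Control library. Without it the members' median fell to 0.073, and edgeR called 1 member, MRPL24 (adjusted p = 0.0316), where 3.07% of all genes were called. Without rhChem157S replicate 1, edgeR called MRPL24 (adjusted p = 0.0365) and MRPS35 (adjusted p = 0.0474), where 6.24% of all genes were called.

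**Figure D2:**
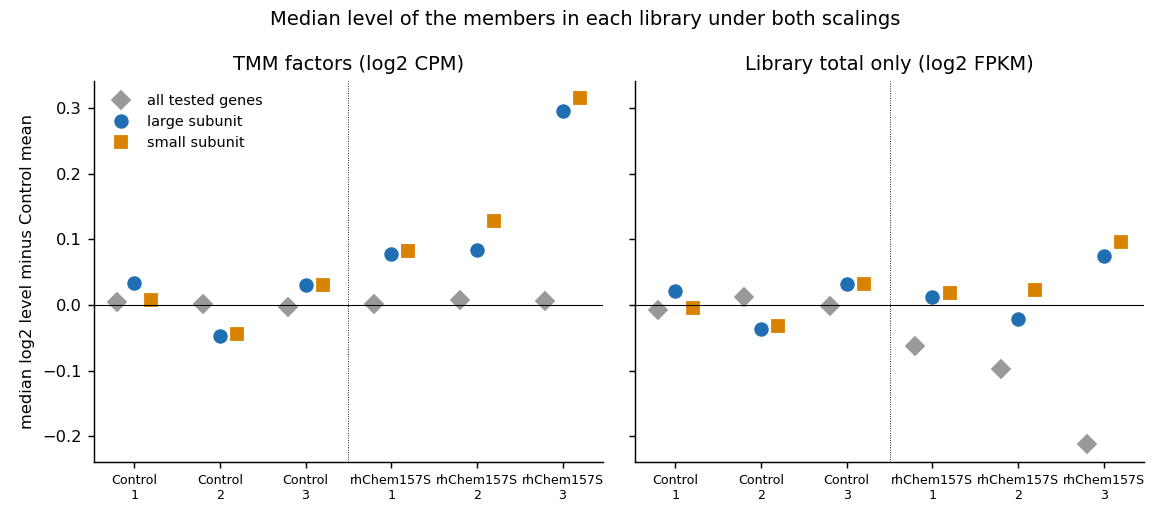
Median difference from the Control mean (log2, y axis) of the large subunit members, the small subunit members and all tested genes in each of the 6 libraries, with TMM factors on the left and library totals alone on the right. Both subunits lie above all genes in the 3 rhChem157S libraries on either scale, farthest in replicate 3, while all genes drop to -0.21 there on the right.

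The median fold change of all tested genes differed with abundance. Among tested genes at 10 to 100 FPKM, a band with 60 of the members, the median log2 fold change was 0.081 over 5152 genes and 0.14 over the members. Between 1 and 10 FPKM it was -0.027 over 5337 genes and 0.21 over the other 17 members. Genes below 1 FPKM, where no tested member lay, had a median of -0.37, and those above 100 FPKM had 0.25. Lengths also differed, since the median length behind the FPKM was 1513 bases in members and 4065 bases in all tested genes. For genes of 1000 to 2000 bases the median was 0.056 over 1728 genes and 0.21 over 39 members. Below 1000 bases it was 0.086 over 458 genes and 0.15 over 15 members. From 2000 to 4000 bases it was 0.012 over 4349 genes and 0.12 over 17 members. For longer genes it was -0.00047 over 6776 genes and 0.17 over 6 members. The part of abundance and length in the members' median was not tested further.

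**Figure D3:**
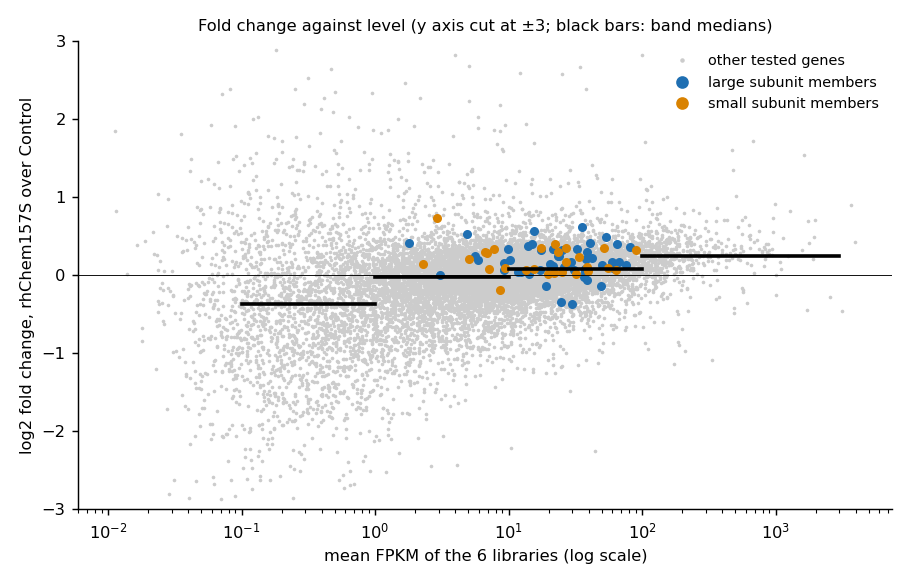
Log2 fold change (rhChem157S over Control, y axis, cut at 3 on either side of 0) against mean FPKM of the 6 libraries (x axis, log scale) for all tested genes (grey), large subunit members (blue) and small subunit members (orange), with black bars at the median of all genes in each FPKM band. The members cluster between 1 and 100 FPKM and close to 0, and the band medians step from -0.37 to 0.25 as the level increases.

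Among large subunit proteins with a bacterial counterpart, 26 of 29 had a fold change above 0 and the median was 0.19 on the log2 scale. The median was 0.10 without rhChem157S replicate 3, and with library totals alone it was 0.060, with 17 of 29 above 0. MRPL24, a protein that joins the large subunit early in its assembly, stood at 28.7, 30.02 and 29.7 FPKM in Control and at 39.9, 39.3 and 44.4 FPKM in rhChem157S. All 3 treated libraries lay above all 3 Control libraries, by more than the range within either group. On TMM-scaled counts its level was 1.54-fold higher (log2 fold change 0.62 ± 0.11 SE, n = 3 per group), with an edgeR adjusted p of 0.0752 that ranged from 1.2e-05 to 0.359 over the alternatives. MRPL24 is at chr1:156737303-156741590 on the minus strand in GENCODE release 29, and none of its exon bases are shared with another gene.

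MRPL3, a conserved protein of the core near the peptidyl transferase centre, was at 47.7, 45.5 and 47.95 FPKM in Control and at 52.7, 54.8 and 72.3 FPKM in rhChem157S. The groups did not overlap, and the treated mean was carried upward by replicate 3. Its log2 fold change was 0.49 ± 0.16 (edgeR adjusted p = 0.148), and 0.28 without that library (edgeR adjusted p = 0.0798). MRPL12, the counterpart of the bacterial L7/L12 stalk that recruits translation factors, was at 67.2, 62.5 and 68.4 FPKM in Control and at 62.5, 58.9 and 81.4 FPKM in rhChem157S. Its groups overlapped, and its log2 fold change of 0.17 became -0.04 without rhChem157S replicate 3. AC139530.2 shares 701 of the 1028 exon bases of MRPL12 on the same strand. MRPL11, at the base of the same stalk, was at 20.8 to 22.4 FPKM over all 6 libraries (log2 fold change 0.12 ± 0.09, and 0.07 without rhChem157S replicate 3).

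MRPL18, which lies in the central protuberance, was at 62.9, 56.2 and 57.0 FPKM in Control and at 66.4, 66.9 and 78.7 FPKM in rhChem157S. These groups did not overlap either, and the log2 fold change was 0.40 ± 0.13 (edgeR adjusted p = 0.143), and 0.26 without rhChem157S replicate 3. MRPL30 and MRPL35, both conserved large subunit proteins, had smaller levels and like differences. MRPL30 was at 8.78 to 9.51 FPKM in Control and at 10.1 to 11.0 FPKM in rhChem157S (log2 fold change 0.34 ± 0.10, edgeR adjusted p = 0.133). On its strand it shares 564 of 2898 exon bases with other genes. MRPL35 was at 12.4 to 13.2 FPKM and at 14.0 to 16.1 FPKM (log2 fold change 0.38 ± 0.12, edgeR adjusted p = 0.142). MRPL23 had a log2 fold change of 0.41 ± 0.28 that rested on rhChem157S replicate 1, at 2.89 FPKM against 1.43 to 1.77 FPKM in the other 5 libraries, and it was 0.06 without that library.

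In the opposite direction, MRPL33 and MRPL34, both short conserved proteins of the large subunit, had the lowest fold changes of all members. MRPL33 was at 35.1, 35.1 and 35.2 FPKM in Control and at 27.6, 23.4 and 23.4 FPKM in rhChem157S. The Control libraries were nearly equal and every treated library lay below them, also on TMM-scaled counts. The level was 0.772 times that of Control (log2 fold change -0.37 ± 0.11, edgeR adjusted p = 0.135), and limma on log2(FPKM + 1) gave an adjusted p of 0.0493, where it called 1.34% of all genes. MRPL33 is at chr2:27771717-27988087 on the plus strand, and 324 of its 1539 exon bases are shared on that strand with BABAM2. MRPL34 was at 27.5, 24.98 and 33.8 FPKM in Control and at 21.5, 20.5 and 20.2 FPKM in rhChem157S. Its groups did not overlap, with the wider spread in Control, and its log2 fold change was -0.34 ± 0.13 (edgeR adjusted p = 0.198), and -0.21 without Control replicate 3. MRPL34 is at chr19:17292609-17306843 on the plus strand and shares 223 exon bases with ABHD8 on the opposite strand. MRPL16, which lines the peptidyl transferase centre, was at 36.7 to 41.2 FPKM in Control and at 32 to 37.8 FPKM in rhChem157S (log2 fold change -0.02 ± 0.09).

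**Figure D4:**
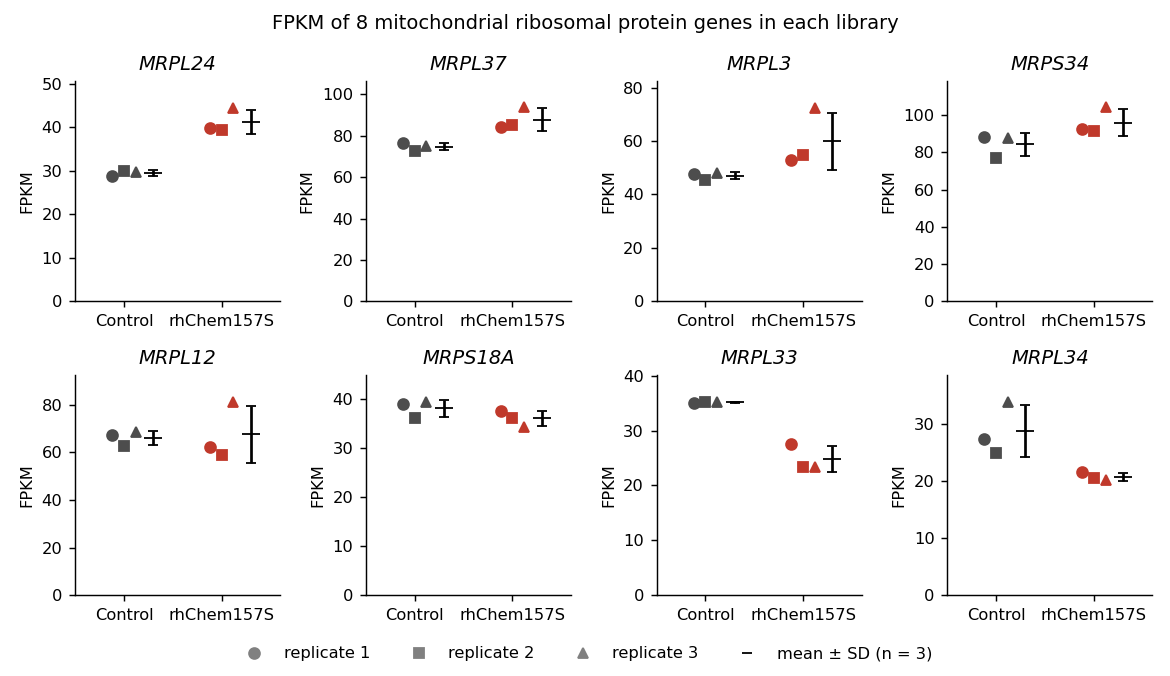
FPKM (y axis, from 0) of 8 members in each library, with the shape giving the replicate and the bar beside each group its mean ± SD (n = 3). MRPL24, MRPL37, MRPL3 and MRPS34 do not overlap between the groups and are higher with rhChem157S, MRPL33 and MRPL34 are lower without overlap, and MRPL12 and MRPS18A overlap.

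Of the mitochondria-specific proteins of the large subunit, 18 of 21 had a fold change above 0, with a median of 0.15 on the log2 scale. The median was 0.024 without rhChem157S replicate 3, and with library totals alone it was 0.012, with 12 of 21 above 0. MRPL37 was at 76.3, 72.9 and 75.01 FPKM in Control and at 84.3, 85.3 and 94.0 FPKM in rhChem157S. The gap between the groups was wider than the range within Control, and the log2 fold change was 0.37 ± 0.10 (edgeR adjusted p = 0.119). It is at chr1:54184041-54225464 on the plus strand and shares 173 of 2549 exon bases with genes on the opposite strand. MRPL43 was at 24.3, 23.9 and 22.7 FPKM in Control and at 28.5, 24.9 and 27.8 FPKM in rhChem157S, with rhChem157S replicate 2 just above the Control libraries (log2 fold change 0.33 ± 0.10, edgeR adjusted p = 0.131). Because 1319 of its 3573 exon bases are shared with SEMA4G and TWNK on the opposite strand, this value is uncertain. MRPL40, encoded on chromosome 22, was at 29.3 to 32.3 FPKM and at 34.1 to 36.6 FPKM (log2 fold change 0.34 ± 0.11, edgeR adjusted p = 0.143).

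Some members of this class are related to enzymes or have further roles. MRPL58, a peptidyl-tRNA hydrolase that can free stalled ribosomes, was at 19.0 to 20.4 FPKM in Control and at 19.8, 21.9 and 26.8 FPKM in rhChem157S, which overlapped (log2 fold change 0.34 ± 0.16, and 0.15 without rhChem157S replicate 3). MRPL44, which has the fold of a ribonuclease III, was at 13.2 to 16.0 FPKM and at 13.2 to 13.9 FPKM (log2 fold change 0.02 ± 0.12). MRPL45, which anchors the ribosome to the inner membrane, was at 25.1 to 28.0 FPKM and at 23.1 to 27.8 FPKM (log2 fold change 0.11 ± 0.13), and MRPL51 at 74.0 to 76.8 FPKM and at 69.3 to 82.8 FPKM (log2 fold change 0.14 ± 0.08). The 3 members of the class below 0 were MRPL49 (-0.06), MRPL53 (-0.13) and MRPL55 (-0.14) on the log2 scale, and none had a p under 0.05 before adjustment. MRPL55 was at 20.1 to 22.3 FPKM in Control and at 19.8, 19.7 and 13.02 FPKM in rhChem157S. Its difference rested on rhChem157S replicate 3, without which it was within 0.01 of 0.

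Small subunit proteins were split by origin. The 10 mitochondria-specific ones all had a fold change above 0, with a median of 0.28 on the log2 scale, and 6 of them had a p under 0.05 before adjustment (60%, against 22.8% of all tested genes). With library totals alone 8 of the 10 stayed above 0, with a median of 0.15, and without rhChem157S replicate 3 the median was 0.22. The 16 tested ones with a bacterial counterpart were also all above 0 with TMM factors, with a median of 0.093, but only 6 of the 16 were so with library totals alone (median -0.035), and without rhChem157S replicate 3 the median was 0.046. Of these 16, 12.5% had a p under 0.05 before adjustment. In the large subunit the order was reversed, at 37.9% with a bacterial counterpart and 23.8% of the mitochondria-specific ones. Differences between these classes were not tested.

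The 6 were MRPS22, MRPS27, MRPS30, MRPS31, MRPS34 and MRPS35, of which MRPS30 lies in the large subunit of the human structure. MRPS34 was at 88.0, 77.0 and 87.8 FPKM in Control and at 92.4, 91.5 and 104.3 FPKM in rhChem157S. The groups did not overlap, but the gap was narrower than the range within Control (log2 fold change 0.32 ± 0.12, edgeR adjusted p = 0.171, and 0.21 on the log2 scale without rhChem157S replicate 3). The gene is at chr16:1771890-1773155 on the minus strand, and no other gene shares its exons. MRPS27, a protein with pentatricopeptide repeats, a fold that binds RNA, was at 34.2, 31.7 and 32.02 FPKM in Control and at 37.4, 35.1 and 33.1 FPKM in rhChem157S (log2 fold change 0.24 ± 0.08, edgeR adjusted p = 0.147). Its groups overlapped in FPKM and were apart on TMM-scaled counts. MRPS33 was at 1.99 to 2.47 FPKM and at 2.06 to 2.53 FPKM (log2 fold change 0.14 ± 0.17, and 0.0045 without rhChem157S replicate 3).

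Among the conserved ones, MRPS12, which takes part in decoding, was at 26.4 to 27.3 FPKM in Control and at 27.0, 23.2 and 31.9 FPKM in rhChem157S. The treated libraries lay on both sides of Control (log2 fold change 0.17 ± 0.15). MRPS7, a protein of the head of the small subunit, was at 55.3 to 58.2 FPKM and at 50.6 to 58.7 FPKM (log2 fold change 0.09 ± 0.09, and 0.03 without rhChem157S replicate 3). The largest fold change of all members belonged to MRPS28, at 2.73, 1.95 and 2.25 FPKM in Control and at 3.64, 2.73 and 4.15 FPKM in rhChem157S. With 60 to 130 counts per library it also had a large error (log2 fold change 0.74 ± 0.30, edgeR adjusted p = 0.202). In the GENCODE models, 650 of its 1817 exon bases are shared with AC036214.3 on its strand. The length behind its FPKM was 838 bases, so the models counted may differ. Whether this overlap affected its count was not tested, and this value is uncertain. MRPS28 and MRPS35 were singled out after their values were seen.

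The 3 paralogues of the bacterial protein S18 differed in level more than in response. MRPS18A, in the large subunit, was at 36.2 to 39.4 FPKM in Control and at 34.4 to 37.7 FPKM in rhChem157S. MRPS18B was at 36.0 to 43.2 FPKM and at 36.4 to 39.8 FPKM, and MRPS18C, both in the small subunit, was at 5.54 to 6.84 FPKM and at 6.495 to 7.66 FPKM. Their groups overlapped, with log2 fold changes of 0.05 ± 0.08, 0.11 ± 0.11 and 0.30 ± 0.17, and of 0.03, 0.04 and 0.18 without rhChem157S replicate 3. On the opposite strand, MRPS18A shares 604 of 1284 exon bases with RSPH9, and MRPS18C shares 1956 of 4866 with ABRAXAS1. MRPS36 was at 10.04, 9.33 and 9.30 FPKM in Control and at 8.98, 6.52 and 7.44 FPKM in rhChem157S, and it was the only member with a small subunit symbol and a fold change below 0 (log2 fold change -0.19 ± 0.16, edgeR adjusted p = 0.473).

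In FPKM, the 3 libraries of each group did not overlap in 22 of the 77 tested members. In 15 of them rhChem157S was higher (19.5%, against 7.36% of all tested genes) and in 7 it was lower (9.09%, against 25.1%). The 7 lower ones were MRPL33, MRPL34, MRPL42, MRPL53, MRPL55, MRPL57 and MRPS36. On TMM-scaled counts 28 members did not overlap and were higher (36.4%, against 16.5%), and 2 were lower (2.60%, against 16.0%), namely MRPL33 and MRPL34. The count of higher members was thus above the background, and that of lower ones below it, on both scales.

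Other genes of mitochondrial translation were taken from lists by function. No list had a member past an adjusted p of 0.05 with edgeR, where 0.0301% of all tested genes passed. Before adjustment, 0 of the 5 other ribosomal proteins, 3 assembly factors, 2 translation factors and 3 tRNA synthetase genes had a p under 0.05, each higher, as did 2 higher and 2 lower regulators. These are 0%, 10.7%, 11.8%, 13.6% and 30.8% of the lists in that order, against 22.8% of all tested genes in both directions together. Of all tested genes, 11.4% had such a p and were higher, and 11.4% were lower. The 10.7%, 11.8% and 13.6% were all higher and lay near that share, with none lower. The 5 other ribosomal proteins are too few to read such a share. DESeq2 called 0%, 3.57%, 5.88%, 9.09% and 7.69% of the lists in the same order, against 9.05% of all genes. The 5 ribosomal proteins with other symbols (such as DAP3 and PTCD3) had log2 fold changes with a median of 0.15, and 4 were above 0. The medians of these lists moved with the scaling as the members' did. They were also lower without rhChem157S replicate 3, though that of the tRNA synthetase genes went only from 0.14 to 0.12. With library totals alone, the other ribosomal proteins had a median of 0.019 (3 of 5 above 0), the assembly factors -0.034 (12 of 28), the translation factors 0.018 (11 of 17), the tRNA synthetase genes 0.012 (12 of 22) and the regulators 0.060 (7 of 13). Without rhChem157S replicate 3 and with TMM factors, the medians were 0.050, 0.039, 0.088, 0.12 and 0.063 in that order. Among the other ribosomal proteins, GADD45GIP1 was at 0.27 ± 0.13 on the log2 scale (0.18 without rhChem157S replicate 3) and CHCHD1 at -0.04 ± 0.10. Of 28 factors that assemble the ribosome, 25 were above 0 with TMM factors, with a median of 0.099. RPUSD4, a pseudouridine synthase that acts on the large ribosomal RNA, was at 6.23, 6.65 and 6.22 FPKM in Control and at 8.26, 7.30 and 8.10 FPKM in rhChem157S. Its groups did not overlap (log2 fold change 0.44 ± 0.12, edgeR adjusted p = 0.112, DESeq2 adjusted p = 0.0245). MRM3, a methyltransferase of the same RNA, was at 0.37 ± 0.13 on the log2 scale.

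Of 17 translation factors, 14 were above 0 with TMM factors, with a median of 0.15. MRRF, the recycling factor that splits ribosomes after termination, was at 8.996, 9.39 and 7.71 FPKM in Control and at 11.5, 10.9 and 14.7 FPKM in rhChem157S. The groups were apart, with the highest value again in rhChem157S replicate 3 (log2 fold change 0.64 ± 0.17, edgeR adjusted p = 0.116, DESeq2 adjusted p = 0.0183). SLIRP, which with LRPPRC protects mitochondrial messages, had a log2 fold change of 0.46 ± 0.15. Of 22 genes that charge mitochondrial tRNAs, 19 were above 0 with TMM factors, with a median of 0.14, and DESeq2 called 2 of them higher (9.09%, against 9.05% of all genes). They were KARS1, which serves both the cytosol and mitochondria (log2 fold change 0.49 ± 0.14, DESeq2 adjusted p = 0.0291), and FARS2, the phenylalanine enzyme (0.49 ± 0.14, DESeq2 adjusted p = 0.0381).

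The 13 regulators of mitochondrial transcription and biogenesis were less uniform, with 9 above 0, a median of 0.19 and a range of -1.52 to 0.40 on the log2 scale. The low end was PPARGC1A (-1.52 ± 0.57), with 7 to 91 counts per library and at most 0.231 FPKM. The next lowest was ESRRA at -0.46. ESRRA, a nuclear receptor that drives genes of oxidative metabolism, was at 5.63, 5.90 and 6.57 FPKM in Control and at 3.92, 3.83 and 4.20 FPKM in rhChem157S. Every treated library lay below every Control library (log2 fold change -0.46 ± 0.13, edgeR adjusted p = 0.119, DESeq2 adjusted p = 0.0297). NRF1 was at 5.68, 5.75 and 4.71 FPKM and at 6.38, 6.10 and 6.64 FPKM (log2 fold change 0.38 ± 0.13, edgeR adjusted p = 0.156). None of the 26 symbols searched for messages of the mitochondrial genome was among the genes in the tables, so these messages were not analysed here.

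**Figure D5:**
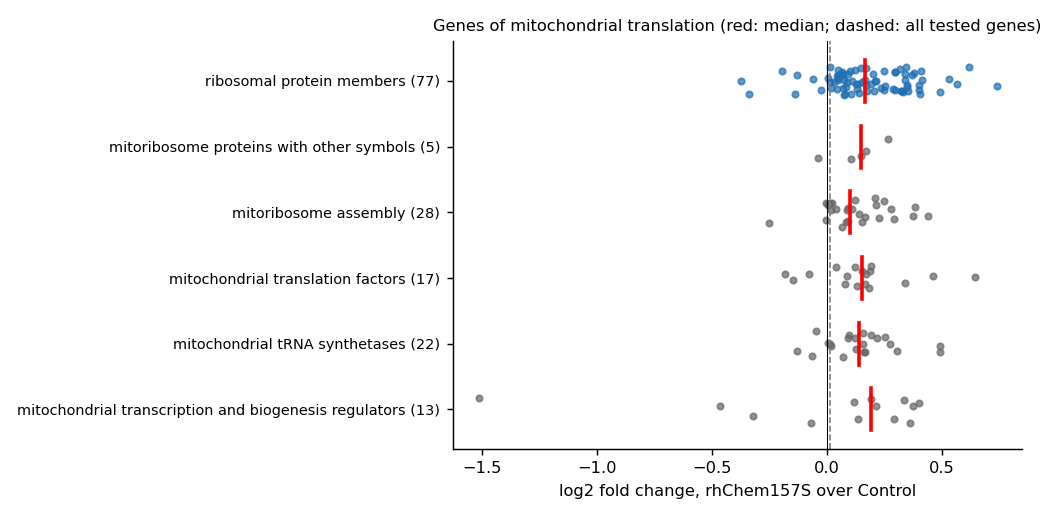
Log2 fold change (rhChem157S over Control, x axis) of the tested genes in 6 lists of mitochondrial translation, 1 point per gene, with the number of genes in parentheses, the list's median as a red bar and the median of all tested genes as a dashed line. The 6 medians lie between 0.099 and 0.19, all right of the dashed line at 0.012.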

How the data were processed

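RNA from 3 Control and 3 rhChem157S-treated libraries of 12Z cells was sequenced. The authors trimmed reads with fastp, aligned them with HISAT2 to GRCh38.p13 and counted them with HTSeq-count, as the methods and submitters' processing notes give, and deposited unnormalised counts. The deposited FPKM equalled the count over a fixed gene length and the library total within 0.1% in all 89195 values compared. Strand setting and annotation release are not given in the sources used here.

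Counts were tested in R 4.3.3 with edgeR 4.0.16 (TMM, filterByExpr with the group, quasi-likelihood test, Benjamini-Hochberg over 13311 genes). Fold changes come from this fit and levels are FPKM. The fit was repeated with DESeq2 1.42.0, with limma 3.58.1 on log2 of FPKM plus a pseudocount of 1 or 0.1, and in edgeR with other scalings, no filter, a block on the replicate number and the removal of each library in turn. In the 6 libraries 1 count was 0.0261 to 0.0282 CPM, which sets the precision of the lowest members. Tests were tried on simulated counts. Standard errors are those of the log2 fold change. Libraries of a group differed by more than counting noise, so none was counted as a duplicate.

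Members and lists were chosen with earlier results of these data known. The text names members past the threshold, the 8 with the smallest p among those higher and all 7 that were lower, members chosen by role, the 3 highest and 3 lowest by FPKM and those removed by the filter, and in each other list the 2 with the smallest p. Further members were named after their values were seen. Gene positions and shared exon bases are from GENCODE release 29 on GRCh38.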

Additional observations from a re-analysis of the deposited data

How the results depend on the processing

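The number of members called was 0 with edgeR under DESeq2's size factors, library totals alone, no filter and the replicate block. Of all genes, these settings called 0.0301%, 0.0376%, 0.104% and 0.00751% in that order. DESeq2 called 2 members, where 9.05% of all genes were called. With limma on log2(FPKM + 1) there were 2 (1 higher, MRPL24, and 1 lower, MRPL33), where 1.34% of all genes were called. Leaving out 1 library gave 0 to 2 members with edgeR, where 0% to 6.24% of all genes were called. It gave 1 to 11 members with DESeq2, where 2.03% to 18.3% of all genes were called. Both tools called the most without rhChem157S replicate 1. That DESeq2 was rerun with each library left out, that MRPS30 was moved to the large subunit and that the summed share was recomputed without each library was chosen after seeing the data. Members with an unadjusted p under 0.05 numbered 8 with library totals alone, where 22.7% of all tested genes had one. They numbered 15 with limma at either pseudocount (1 or 0.1), and 6 to 22 without 1 library, the fewest without Control replicate 2. For limma and without 1 library the share of all genes was not counted. Those numbers are therefore not read as a result about the members. The median log2 fold change of all, large and small subunit members was 0.030, 0.032 and 0.0033 with library totals alone, 0.018, 0.027 and 0.0028 with limma on log2(FPKM + 1), and 0.018, 0.027 and 0.0042 on log2(FPKM + 0.1), all on scales without TMM factors. Without 1 library these medians ran from 0.073 to 0.21, from 0.081 to 0.21 and from 0.057 to 0.21, lowest each time without rhChem157S replicate 3. The members apart in FPKM numbered 26 to 31 without 1 library, fewer values having to stand apart, with 15 to 21 higher (19.5% to 27.3%, against 8.94% to 12.8% of all tested genes) and 8 to 13 lower (10.4% to 16.9%, against 27.8% to 37.7%), the most lower ones without Control replicate 2 and without rhChem157S replicate 3. The ratio of summed shares ran from 1.01 to 1.05. DESeq2 called 1 assembly factor, 1 translation factor, 2 tRNA synthetase genes and 1 regulator, 3.57% to 9.09% of each list against 9.05% of all genes, and edgeR called 0 to 1 tRNA synthetase genes without 1 library, the 1 without rhChem157S replicate 1, where 6.24% of all genes were called. Relative to the median of all genes, 23 of the 30 named members with a fit kept their direction under every alternative. Without 1 library the others ran from -0.035 (without rhChem157S replicate 3) to 0.26 for MRPL12, from -0.075 to 0.010 (without Control replicate 1) for MRPL16, from -0.076 (without Control replicate 2) to 0.068 for MRPL44, which was also below 0, at -0.044, without rhChem157S replicate 3, from -0.0043 (without rhChem157S replicate 3) to 0.20 for MRPL45, from -0.24 to 0.00075 (without rhChem157S replicate 3) for MRPL55, from -0.0084 (without rhChem157S replicate 3) to 0.27 for MRPS12 and from -0.0080 (without Control replicate 2) to 0.060 for MRPS18A. MRPL44 was at -0.021 with limma on log2(FPKM + 1). The cause was not tested. Deviations of same-numbered libraries correlated at 0.24, 0.0015 and 0.25, and those of differently numbered ones at -0.31 to 0.11. These values do not settle whether the numbers are pairs, and the main fit did not take them as such. With the replicate block 0 members were called, with a median of 0.15. Counts of 1 to 8 limit MRPS24, and 60 to 130 limit MRPS28.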
